A study of Mus musculus with 8 samples.

Results

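The replication-dependent histone genes are the clustered genes that encode the linker histone H1 and the core histones H2A, H2B, H3 and H4 made in bulk during DNA replication. They were taken by symbol from the array's annotation, and 27 of the 19938 genes measured by a probe set of their own belonged to them. These were 5 linker histone H1 genes, 4 H2A genes, 9 H2B genes, 3 H3 genes and 6 H4 genes. A further 26 probe sets were annotated to several histone genes at once and are described apart. In all, the annotation named 63 replication-dependent histone genes, of which 36 appeared only on such shared probe sets. Of the 27 members, 18 were also listed on shared probe sets. Whether a member's own probe set also responds to transcripts of related histone genes was not tested, so its signal may not be of that gene alone.

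RNA came from mouse embryonic fibroblasts with a Daxx knockout on an FVB/N background, and every sample carried the knockout. These cells had been complemented with an empty vector (4 arrays, vector) or with Daxx (4 arrays), and the titles divide the latter into DaxxA (2 arrays) and DaxxB (2 arrays). What A and B stand for, how Daxx was expressed, and whether arrays of a group came from separate cultures were not stated, so the p-values below reflect no more than array-to-array spread, which could be purely technical. The series set out to find genes that Daxx regulates.

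In S phase a cell doubles its DNA and has to package the new copy, and the replication-dependent histone genes supply the protein. Their transcripts lack introns and, unlike other messenger RNAs, usually end in a stem-loop bound by Slbp in place of a poly(A) tail, so that their level follows the cell cycle. Npat, recruited to histone locus bodies at the gene clusters, drives their transcription. Daxx belongs to a different branch of histone supply: with Atrx it deposits the replication-independent variant H3.3 outside S phase. Random oligomers as well as poly(T) primed the first-strand cDNA, so transcripts without a poly(A) tail could enter the library.

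Sequence just before the transcription start is shown for the H1 genes, since H1f2 was the only member that passed the test over all 8 arrays and its relatives are the nearest comparison. The sequences are from RefSeq (GRCm38.p6), 130 bases up to the base before the transcript start, on the strand of the gene. Capitals mark 3 motifs, each searched on both strands. The first is the H1 box, spelled AAACACA. The second is the CCAAT box, which on the other strand reads ATTGG. The third is the TATA box, spelled TATAAA. A repeat form, spelled TATATA, was counted with it, and overlapping matches are joined. The windows are H1f1 at chr13:23763538-23763667 (plus strand), H1f2 at chr13:23738677-23738806 (plus), H1f3 at chr13:23554902-23555031 (plus), H1f5 at chr13:21780626-21780755 (minus) and H1f6 at chr13:23695681-23695810 (plus).
H1f1: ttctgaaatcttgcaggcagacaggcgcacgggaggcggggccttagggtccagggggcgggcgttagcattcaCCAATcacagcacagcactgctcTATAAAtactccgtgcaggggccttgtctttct
H1f2: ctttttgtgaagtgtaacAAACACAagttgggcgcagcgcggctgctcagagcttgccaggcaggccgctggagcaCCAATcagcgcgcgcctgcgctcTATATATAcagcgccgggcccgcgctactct
H1f3: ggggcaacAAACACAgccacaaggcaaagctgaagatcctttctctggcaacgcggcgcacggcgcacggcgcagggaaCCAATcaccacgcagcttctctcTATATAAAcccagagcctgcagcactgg
H1f5: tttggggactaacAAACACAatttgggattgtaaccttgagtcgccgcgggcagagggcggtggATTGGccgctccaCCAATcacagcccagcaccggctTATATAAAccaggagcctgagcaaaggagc
H1f6: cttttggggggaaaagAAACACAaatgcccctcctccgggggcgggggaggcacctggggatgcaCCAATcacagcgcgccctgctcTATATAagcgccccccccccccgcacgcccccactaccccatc

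H1f2 holds AAACACA at -112, CCAAT at -54 and a TATA box at -31, counted to the first base of the match with -1 as the base before the start. AAACACA was found in 4 of the 5 H1 windows and not in that of H1f1, against 2.98% of 32851 promoter windows of the same length. CCAAT and a TATA box were in 5 of 5, against 22.4% and 8.57% of all windows. Over the 23 members with a promoter in the table, AAACACA was in 7, CCAAT in 18 and a TATA box in 14. The octamer ATTTGCAT, known as an element of H2B promoters, was in 4 of 7 H2B windows and 3 of 4 H2A windows, against 0.868% of all. The same 3 elements were in the windows of H1f2, H1f3, H1f5 and H1f6, of which only H1f2 passed the test below. H1f3 and H1f6 were not above background as defined below, and a link between these elements and the call was not tested. A match describes the letters in the window only.

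The arrays were compared on the deposited log2 signal, in which a difference of 1 is a 2-fold change. A gene was called when limma's adjusted p, over all 19938 genes, was below 0.05. A signal was treated as above background when its mean over the 8 arrays exceeded 6.07, the 95th percentile of 1027 olfactory receptor genes. By that measure 22 members were above background, and H1f3, H1f6, H2ac8, H2bc21 and H3c7 were not. Vector replicate 2 stood apart from the other 7 arrays: its interquartile range was 2.79 against 3.31 to 3.39, its mean correlation with the others 0.969 against 0.990 to 0.992, and its median olfactory receptor signal 5.21 against 4.65 to 4.70. Counts of calls and the changes of members are therefore also given without it, and values over 8 arrays hold that array unless this is said. Daxx itself read 7.34, 6.85, 7.27 and 7.16 on the vector arrays, 7.35 and 7.36 on DaxxA and 7.46 and 7.23 on DaxxB, which overlap (exact two-sided permutation p = 0.143, or 0.229 without vector replicate 2), so this probe set does not separate the groups, and whether it covers the deleted part was not tested. Of 15 fibroblast markers, 13 were above background, as were 4 of 8 epithelial, 1 of 6 endothelial, 2 of 6 blood, 1 of 8 male germ cell and 3 of 6 neural markers.

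Over the 8 arrays H1f2 was the only measured replication-dependent histone gene called between Daxx and vector arrays. Its signal rose by 0.31 on the log2 scale, and the other 26 genes did not pass the test. Among these H3c15 had a larger change, 0.40. The 1 call among 27 genes (3.70%) compares with 4.52% of all genes called in either direction and 1.8% called upward. No member was both called and changed 2-fold, as 0.271% of all genes were. The median change of the members was -0.02 (range -0.20 to 0.40), and that of all genes -0.03, or -0.02 and 0.02 without vector replicate 2. The change was above 0 in 10 of the 27, against 41.8% of all genes, and in 14 with each array centred on its median, so the small changes have no settled sign. The 95% interval of the change lay within 2-fold in either direction for 27 of 27 members (99% of all genes), and within 0.5 log2 for 25 (83.3% of all genes), with H3c15 and H4c3 outside. Without vector replicate 2 these counts were 27 (99.4% of all genes) and 26 (96.4% of all genes), with H3c15 outside. At an unadjusted p below 0.05 stood 2 members (7.41%), H1f2 and H3c15, against 15.4% of all genes. With vector replicate 2 left out, the calls were H1f2 and H3c7, 2 of 27 (7.41%) against 12.8% of all genes.

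**Figure D1:**
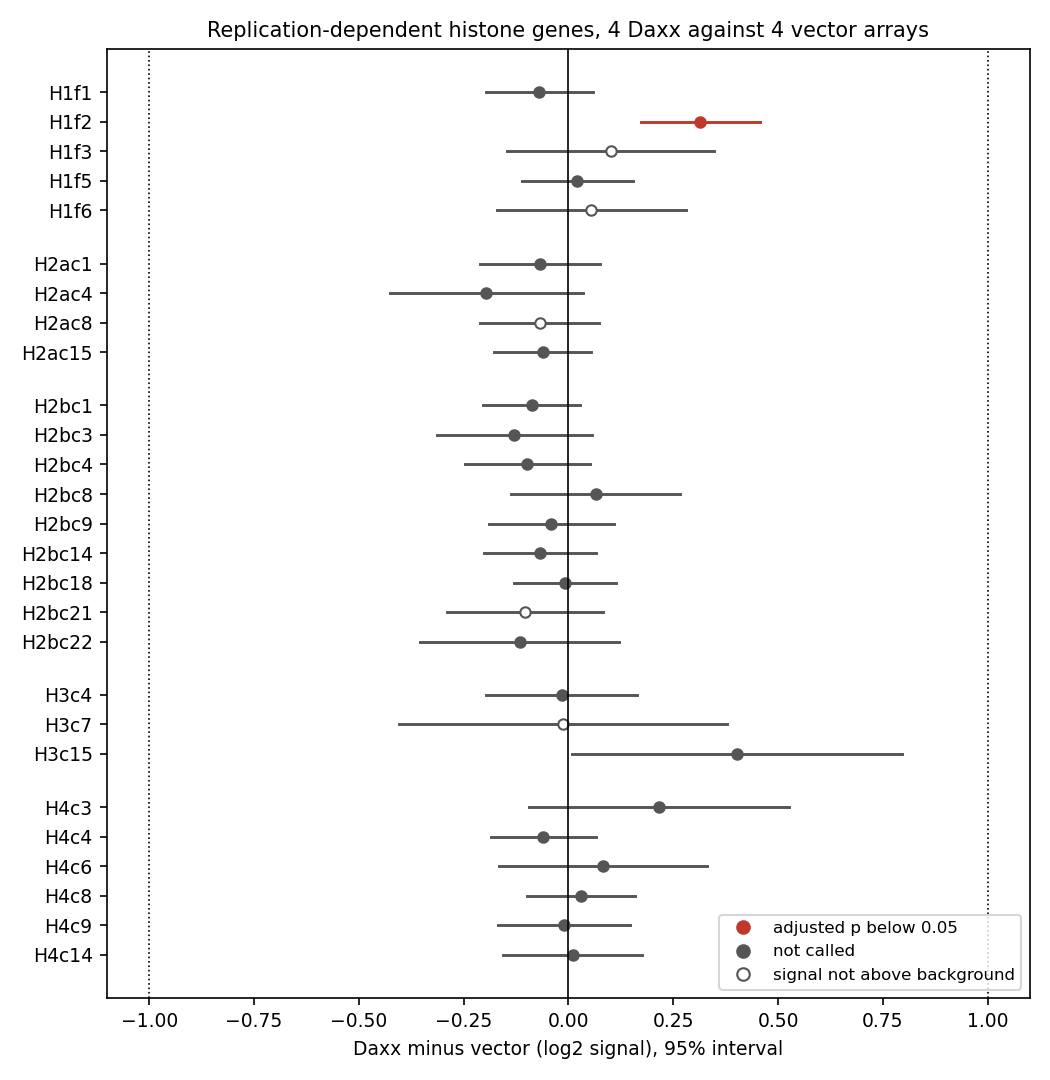
Daxx minus vector change (log2 signal, horizontal axis) of the 27 replication-dependent histone genes over 4 Daxx and 4 vector arrays, with 95% intervals from limma; open circles are genes not above background and dotted lines mark a 2-fold change. H1f2, in red, is the only gene called, and all 27 intervals lie between the dotted lines.

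Linker histone H1 binds the nucleosome at the entry and exit of DNA and compacts the fibre, and somatic cells mix several subtypes. H1f2 (Hist1h1c) encodes the subtype H1.2. Its signal was 8.38, 8.29, 8.30 and 8.45 on the vector arrays, 8.77 and 8.62 on DaxxA, and 8.59 and 8.69 on DaxxB. Every Daxx array was above every vector array, and vector replicate 2 was the lowest of all, level with vector replicate 3. The vector mean was 8.35 ± 0.08 (SD, n = 4) and the Daxx mean 8.67 ± 0.08 (SD, n = 4), a 1.24-fold difference. The log2 change was 0.31 (SE 0.06, limma adjusted p = 0.0262), and 0.29 (adjusted p = 0.00645) without vector replicate 2. An exact two-sided permutation test of this gene alone gave p = 0.0286, the smallest that 4 against 4 arrays can give. Values that do not overlap always give this p, so it adds nothing to the separation. Among all genes 14.8% were separated in this way. Leaving out each array in turn kept the change between 0.28 and 0.35, with limma's adjusted p from 0.00645 to 0.098 and a call in 3 of 8 fits. The call was lost without vector replicate 1 or 3, without either DaxxA array and without DaxxB replicate 2.

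The other somatic H1 genes with a probe set of their own did not share that separation. H1f4 was measured only on a probe set shared with H2bc6, which is described with the shared probe sets. H1f1 (subtype H1.1) read 9.24, 9.43, 9.27 and 9.30 on vector, 9.25 and 9.23 on DaxxA, and 9.21 and 9.27 on DaxxB, with vector replicate 2 highest and the groups overlapping. Its change was -0.07 (SE 0.06, limma adjusted p = 0.654), and -0.03 without vector replicate 2. H1f5 (subtype H1.5) read 10.45, 10.51, 10.47 and 10.47 on vector, 10.62 and 10.47 on DaxxA, and 10.40 and 10.50 on DaxxB. DaxxA replicate 1 was highest and DaxxB replicate 1 lowest, and the change was 0.02 (SE 0.06, adjusted p = 0.875), and 0.03 on the 7 arrays without vector replicate 2. H1f3 (subtype H1.3) had a change of 0.10 (SE 0.11, adjusted p = 0.707), or 0.13 on those 7 arrays, at a signal not above background. The difference between the change of H1f2 and that of the other H1 genes was not tested.

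**Figure D2:**
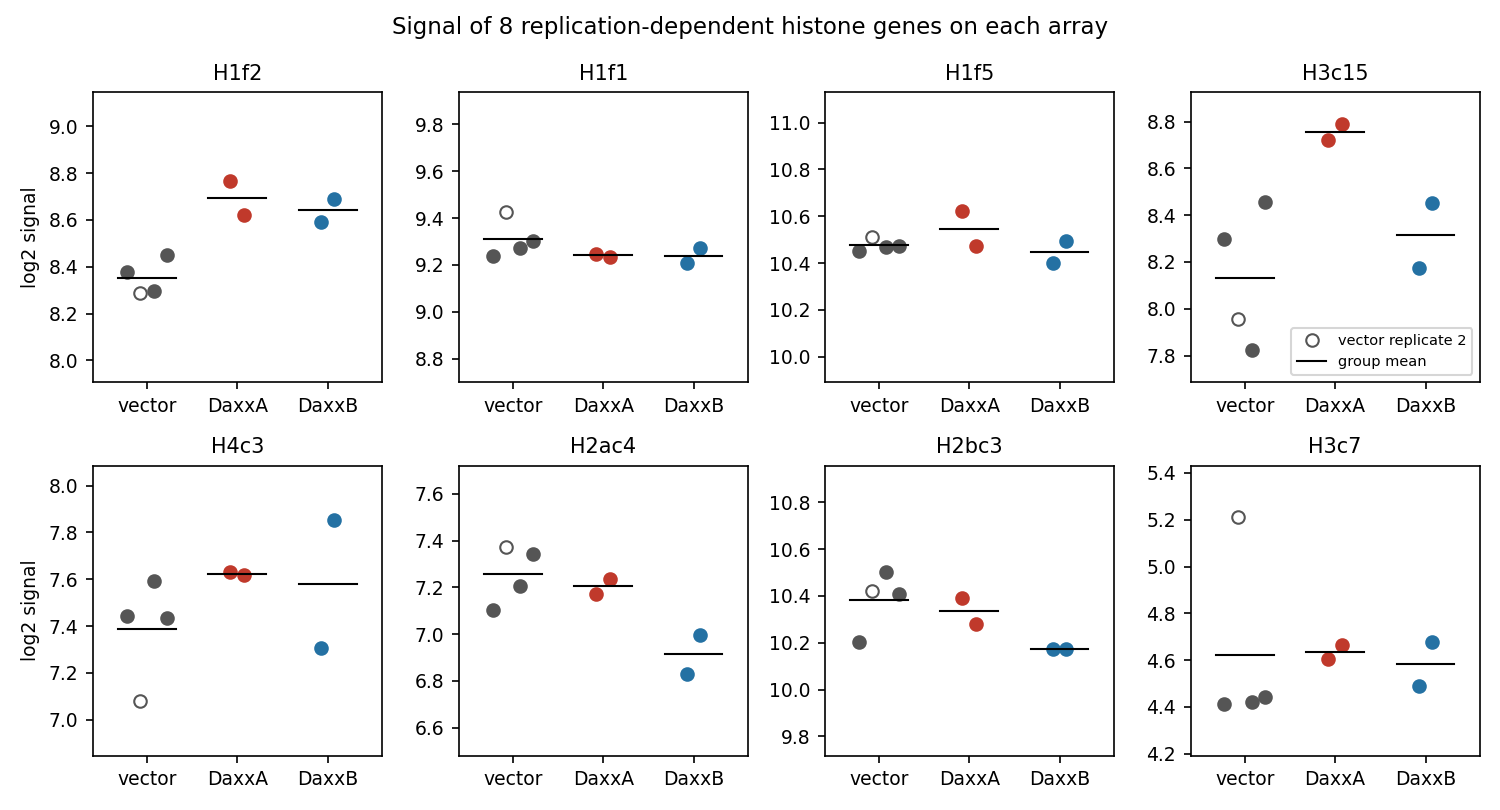
Signal (log2) of 8 members on each array, in the groups vector (4 arrays), DaxxA (2) and DaxxB (2), with group means as bars and vector replicate 2 as an open circle; each panel has its own range. For H1f2 the lowest Daxx array (8.59) is above the highest vector array (8.45), while for the other genes shown the vector and Daxx arrays overlap.

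The testis subtype H1f6, made in spermatocytes, was at background. It read 5.77, 6.04, 5.74 and 5.67 on vector, 5.69 and 5.82 on DaxxA, and 6.03 and 5.90 on DaxxB. Vector replicate 2 was at the level of the DaxxB arrays, above the other vector arrays. Its change over 8 arrays was 0.05 (SE 0.10, limma adjusted p = 0.811), and 0.13 without vector replicate 2. With that array left out, H1f6 passed the test in DaxxB against vector (0.24, adjusted p = 0.0208), where 3 of 27 members did. Over all genes 20.5% were called in that comparison, and the signal is within the background range.

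Core histones H2A and H2B pair as dimers that flank the H3 and H4 tetramer of the nucleosome. None of the 4 H2A genes passed the test in Daxx against vector, and all 4 changes were below 0 (median -0.07), also with each array centred on its median and without vector replicate 2. At an unadjusted p below 0.05 there was no H2A gene over 8 arrays, and H2ac1 alone without vector replicate 2. H2ac4 had the lowest change, -0.20 (SE 0.10, limma adjusted p = 0.430), or -0.16 without vector replicate 2. Its signal was 7.10, 7.37, 7.21 and 7.34 on vector, 7.17 and 7.24 on DaxxA, and 6.83 and 6.998 on DaxxB. Both DaxxB arrays were below every other array, and both DaxxA arrays lay within the vector range.

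DaxxB minus vector was -0.34 for H2ac4 (SE 0.10, limma adjusted p = 0.141), and -0.30 (adjusted p = 0.0169) without vector replicate 2. H2ac15, an H2A gene far above background, read 11.79, 11.89, 11.83 and 11.77 on vector, 11.81 and 11.77 on DaxxA, and 11.72 and 11.74 on DaxxB. The DaxxB arrays were lowest by a margin of 0.1 or less, and the change was -0.06 (SE 0.05, adjusted p = 0.662), or -0.04 without vector replicate 2. H2ac1 encodes the testis H2A variant. It read 8.70, 8.46, 8.61 and 8.66 on vector and between 8.52 and 8.59 on the 4 Daxx arrays, with vector replicate 2 below them all and the other vector arrays above, and its change was -0.07 (SE 0.06, adjusted p = 0.687), or -0.12 without that array.

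None of the 9 H2B genes passed limma's test either, nor did any reach an unadjusted p below 0.05 over 8 arrays. Their median change was -0.09, and the change was above 0 for 1 gene, H2bc8, over 8 arrays, for 2 with each array centred and for none without vector replicate 2. H2bc14 read 11.98, 11.94, 12.00 and 11.87 on vector, 11.96 and 11.80 on DaxxA, and 11.93 and 11.83 on DaxxB, so that the groups overlapped (change -0.07 with or without vector replicate 2, SE 0.06, adjusted p = 0.671). H2bc3 had the lowest change of the family, -0.13 (SE 0.08, adjusted p = 0.549), or -0.12 without vector replicate 2. It read 10.20, 10.42, 10.50 and 10.41 on vector, 10.39 and 10.28 on DaxxA, and 10.17 and 10.17 on DaxxB. The DaxxB arrays were lowest, with vector replicate 1 next to them. H2bc8 read 7.41, 7.29, 7.61 and 7.65 on vector, 7.68 and 7.55 on DaxxA, and 7.50 and 7.50 on DaxxB, all within or just above the vector range (change 0.06, SE 0.09, adjusted p = 0.759). Its change was -0.0017 on the 7 arrays without vector replicate 2.

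H2bc1, which encodes the testis variant of H2B, was the only member besides H1f2 whose 4 vector and 4 Daxx values did not overlap. It read 7.48, 7.41, 7.55 and 7.42 on vector, 7.40 and 7.36 on DaxxA, and 7.37 and 7.37 on DaxxB. The highest Daxx and lowest vector value nearly touched, and the change was -0.09 (SE 0.05, limma adjusted p = 0.503), or -0.11 without vector replicate 2. Non-overlap was met by 2 of 27 members (7.41%), against 14.8% of all genes, and without vector replicate 2 by 4 (14.8%), against 24.4% of all genes.

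H1f2, H2bc4 and H2bc21 are histone genes also known to give polyadenylated transcripts, in cells that have left the cycle among others. H2bc4 read 8.70, 8.91, 8.66 and 8.68 on vector, 8.63 and 8.68 on DaxxA, and 8.62 and 8.62 on DaxxB, with vector replicate 2 above the rest (change -0.10, SE 0.07, adjusted p = 0.580, and -0.04 without that array). H2bc21, not above background, read 6.05, 6.29, 6.03 and 5.90 on vector, 5.93 and 6.01 on DaxxA, and 5.95 and 5.95 on DaxxB, again highest on vector replicate 2 (change -0.10, SE 0.08, adjusted p = 0.653, and -0.03 without that array). Of these 3 genes 1 passed the test, H1f2, and the other changes were below 0. Polyadenylated and other transcripts of a gene cannot be told apart on these arrays.

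Histone H3 and H4 form the tetramer at the centre of the nucleosome. Of the 3 H3 genes with a probe set of their own, none passed limma's test over 8 arrays, and H3c15 reached an unadjusted p below 0.05. H3c15 lies in the smaller cluster on chromosome 3 and had the widest spread of any member, 0.96 between its lowest and highest array. Its signal was 8.30, 7.96, 7.83 and 8.45 on vector, 8.72 and 8.79 on DaxxA, and 8.17 and 8.45 on DaxxB. Both DaxxA arrays were above every other array, and the DaxxB arrays fell within the vector range. The Daxx minus vector change was 0.40 (95% interval 0.01 to 0.79, adjusted p = 0.312, exact permutation p = 0.143), or 0.34 without vector replicate 2. DaxxA minus vector was 0.62 (SE 0.18, limma adjusted p = 0.199), and 0.56 (adjusted p = 0.0336) without vector replicate 2. DaxxA minus DaxxB was 0.44 (95% interval -0.05 to 0.93).

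H3c4 read 7.21, 6.96, 7.16 and 7.22 on vector, 7.26 and 7.02 on DaxxA, and 7.10 and 7.08 on DaxxB, with overlapping groups and a change of -0.02 (SE 0.08, limma adjusted p = 0.931), or -0.08 without vector replicate 2. H3c7 was far below the background limit. It read 4.41, 5.21, 4.42 and 4.44 on vector, 4.61 and 4.66 on DaxxA, and 4.49 and 4.68 on DaxxB, so that vector replicate 2 was 0.80 above the lowest array. Over 8 arrays its change was -0.01 (adjusted p = 0.977). On the other 7 arrays it was 0.18 (adjusted p = 0.0439), a call at a signal below the background limit.

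No H4 gene passed the test or reached an unadjusted p below 0.05 in Daxx against vector. The median change of the 6 was 0.02, with 4 above 0, or 5 with each array centred. H4c4 read 13.28, 13.44, 13.31 and 13.30 on vector, 13.29 and 13.24 on DaxxA, and 13.26 and 13.31 on DaxxB, near the array maxima of 13.72 to 13.91 (change -0.06, SE 0.05, limma adjusted p = 0.684, or -0.02 without vector replicate 2). H4c3 read 7.44, 7.08, 7.59 and 7.44 on vector, 7.63 and 7.62 on DaxxA, and 7.31 and 7.85 on DaxxB. DaxxB replicate 2 was above every other array and DaxxB replicate 1 below all but vector replicate 2, and the change was 0.22 (SE 0.14, adjusted p = 0.555). It was 0.11 without vector replicate 2, the lowest array. The other 4 H4 genes had changes between -0.01 and 0.08.

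By order along the chromosome, 23 members lie among the 54 histone genes of chromosome 13 and 4 among the 10 of chromosome 3. The median change was -0.04 on chromosome 13 and below 0.01 in size on chromosome 3. Around H1f2 the order is H1f6, H4c3, H1f2, H3c3, H2bc3 and H2ac4. The changes of those measured alone were 0.05 for H1f6, 0.22 for H4c3, 0.31 for H1f2, -0.13 for H2bc3 and -0.20 for H2ac4. Values of either sign thus stood side by side, and of the 5 only H1f2 was called.

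The DaxxA and DaxxB arrays differed in how many histone genes were higher, though no gene of the array was called between them over 8 arrays. DaxxA minus vector called 0 of 27 members by limma (1.97% of all genes). At an unadjusted p below 0.05 stood H1f2 and H3c15 (7.41% of members, against 11.4% of all genes). DaxxB minus vector called 0 (2.69% of all genes), with H1f2 and H2ac4 at an unadjusted p below 0.05 (7.41%, against 14.5% of all genes). For H1f2 the changes were 0.34 in DaxxA (adjusted p = 0.0999) and 0.29 in DaxxB (adjusted p = 0.129), and the 2 did not separate from each other (DaxxA minus DaxxB 0.05, 95% interval -0.16 to 0.26). Without vector replicate 2, DaxxA minus vector called H1f2, H3c15 and H3c7 (11.3% of all genes called), and DaxxB minus vector called H1f2, H1f6 and, downward, H2ac4 (20.5% of all genes). The comparisons share their vector arrays.

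DaxxA minus DaxxB called 0 of 27 members, and 0% of all genes, by limma. H2ac4 (0.29, SE 0.11) was the only member at an unadjusted p below 0.05 (3.70%, against 4.24% of all genes). Without vector replicate 2 it called 0 members and 2.15% of all genes. At an unadjusted p below 0.05 were then 6 members (22.2%), against 22.3% of all genes. The DaxxA mean was above the DaxxB mean in 24 of 27 members, against 36.2% of all genes, and with each array centred in 26. The exceptions were H1f6, H2bc14 and H4c4. Both DaxxA arrays were above both DaxxB arrays in 14 members (51.9%), against 17.9% of all genes, and the reverse held for 1, H1f6, against 35.9% of all genes. Higher DaxxA arrays were not limited to the members. In the lists read below they were found for 17 of 49 S phase genes, 10 of 24 of G2 and mitosis and 9 of 23 chaperones. The counts were 7 of 23 for histone messenger RNA synthesis and processing, 3 of 11 for replication-independent histones and 3 of 15 for fibroblast markers. The sizes were small, with a median DaxxA minus DaxxB difference of 0.06 over the members and -0.04 over all genes.

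DaxxB replicate 1 was the lower of the DaxxB arrays in this respect. It was the lowest of the 4 Daxx arrays in 18 of 27 members, and in 17.0% of all genes. Both DaxxA arrays were above DaxxB replicate 1 in 20 members (25.9% of all genes) and above DaxxB replicate 2 in 14 (29.7% of all genes). Members of a histone class share near-identical sequence, so these counts are not over independent genes, and they describe 2 against 2 arrays.

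**Figure D3:**
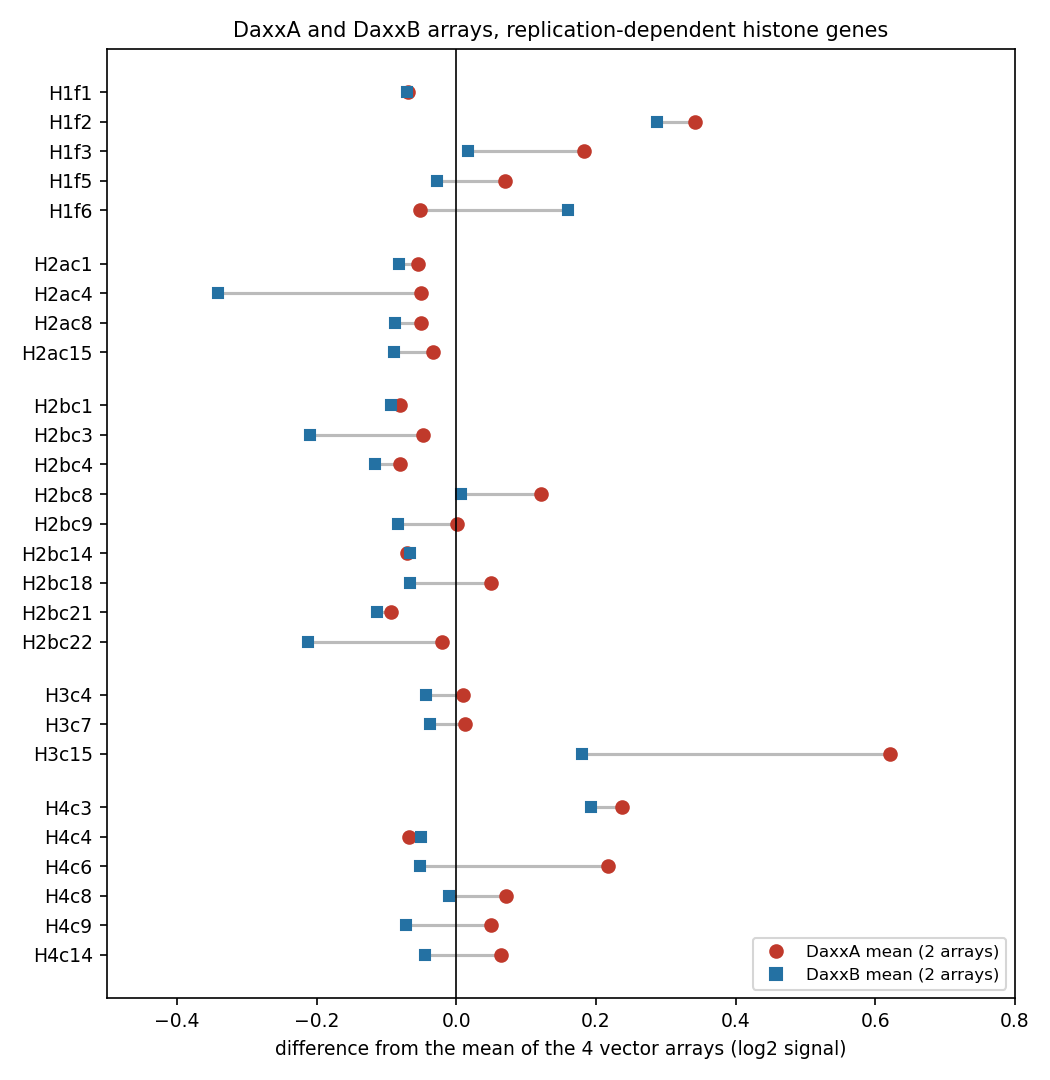
Difference from the mean of the 4 vector arrays (log2 signal, horizontal axis) for the mean of the 2 DaxxA arrays (circles) and of the 2 DaxxB arrays (squares), for 27 replication-dependent histone genes. In 24 genes the circle lies to the right of the square, with H1f6, H2bc14 and H4c4 as the exceptions, and no gene was called between the groups.

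The 26 shared probe sets stand for the bulk of the family, since coding sequences of one histone class are nearly identical. They were tested in 1 fit over all 35556 probe sets, which called 1.9% of them and 0 of the 26 by limma, with 0 at an unadjusted p below 0.05. Without vector replicate 2 the fit called 5.62% of all probe sets and 0 of the 26, with 1 at an unadjusted p below 0.05. The 10 probe sets for 12 H3 genes read 13.15 to 13.52 on all arrays, and their changes ran from -0.01 to 0.03. The 7 for H2B read 12.56 to 13.01, with changes from -0.10 to -0.05, all below 0. In some of the 7, though not all, every Daxx array was below every vector array. The gaps were narrow, in 1 of them from 12.71 (highest Daxx) to 12.73 (lowest vector). The shared probe sets of the other classes all overlapped. Among all genes 14.8% did not overlap, and over all probe sets this was not counted. The 5 for 11 H4 genes read 12.78 to 13.19, with changes from -0.04 to -0.0015. The 2 for H2A read 12.81 to 13.24, with changes of -0.04 and -0.02, and their annotation also lists H3c4.

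These 24 probe sets were above the 99.0th percentile of all probe sets and near the array maxima, and whether the array responds in full to a change at that signal was not tested. The largest spread of any of the H3 ones over the 8 arrays was 0.116. Both DaxxA arrays were above both DaxxB arrays in 7 of 7 H2B probe sets, 3 of 5 for H4, 0 of 2 for H2A and 0 of 10 for H3. Over all genes the share was 17.9%, and over all probe sets it was not counted. In 2 cases (1 pair for H2B, 1 for H4) the probe sets held identical values, and the probe sets of a class share most genes, so they are not separate measurements. A pair of probe sets named only 2 genes each. That for H2bc6 and H1f4 read 8.17, 8.51, 8.20 and 8.27 on vector, 8.49 and 8.37 on DaxxA, and 8.35 and 8.36 on DaxxB, with vector replicate 2 highest and the other vector arrays below all Daxx arrays. Its change was 0.10 (adjusted p = 0.725), and 0.18 (adjusted p = 0.0964) without vector replicate 2. That for H4c17 and H4c11 ran from 6.51 to 7.44 with a change of 0.31 (adjusted p = 0.577).

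**Figure D4:**
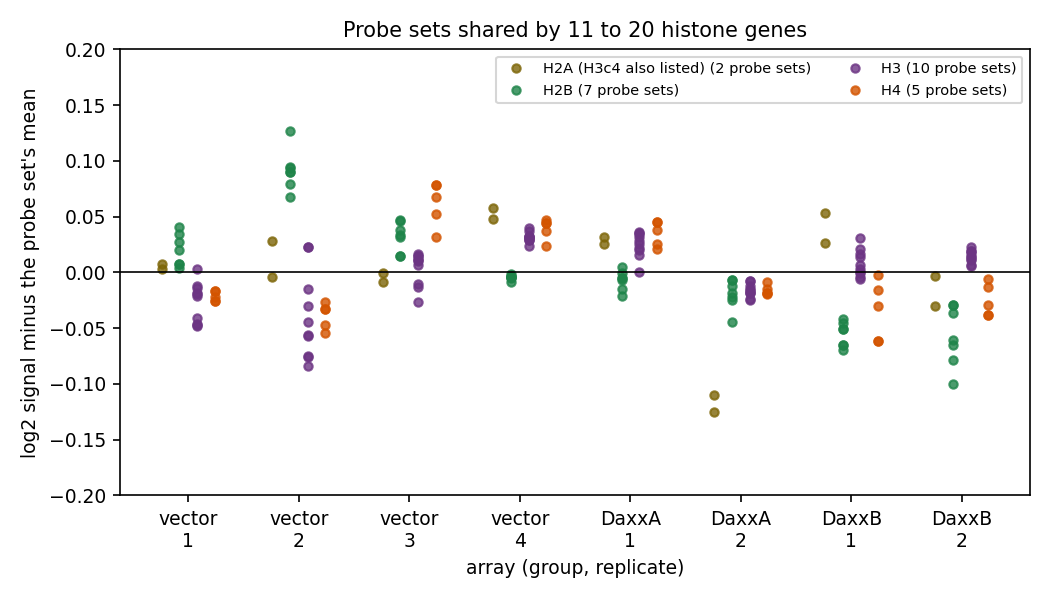
Signal of each shared probe set minus its own mean over the 8 arrays (log2, vertical axis) on each array, for the probe sets annotated to 11 to 20 histone genes. The H2B probe sets are highest on vector replicate 2 and below their mean on both DaxxB arrays, and the H3 probe sets stay within 0.1 of their mean on every array.

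Genes that make and process histone transcripts were read from a list. Of 23 genes of histone messenger RNA synthesis and 3′ processing, 0 passed limma's test over 8 arrays, which called 4.52% of all genes, with Cpsf2, Ncbp1, Snrpb and Snrpg at an unadjusted p below 0.05 and a median change of 0.05. Those 4 are 17.4% of the list, against 15.4% of all genes. Slbp, which binds the stem-loop, had a change of -0.01 (SE 0.05, adjusted p = 0.957). Npat, the activator of histone transcription, read 9.97, 9.70, 9.93 and 10.00 on vector, 9.85 and 9.81 on DaxxA, and 9.54 and 9.60 on DaxxB. The DaxxB arrays were below every other array, with vector replicate 2 closest to them. Its change was -0.20 (adjusted p = 0.372), and -0.27 (adjusted p = 0.0392) without vector replicate 2. Snrpb, a core protein of spliceosomal and other small nuclear particles, had a change of 0.26 (SE 0.07, adjusted p = 0.0813), and 0.20 (adjusted p = 0.0144) without vector replicate 2. In those 7 arrays Snrpg also rose and Upf1, a helicase needed for histone transcript decay, fell, so that 2 of 23 rose and 2 fell, beside 12.8% of all genes called.

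Histone chaperones carry the new protein to DNA. Of 23 measured, 0 passed limma's test over 8 arrays, with 3 at an unadjusted p below 0.05 (Asf1b, Nasp and Anp32e), beside 15.4% of all genes. Asf1b, which hands H3 and H4 to the replication machinery, read 11.35, 11.27, 11.33 and 11.31 on vector, 11.12 and 11.03 on DaxxA, and 11.16 and 11.13 on DaxxB. All Daxx arrays were below all vector arrays, and 14.8% of all genes were separated in either direction. The change of Asf1b was -0.20 (SE 0.05, adjusted p = 0.0635), and -0.22 (adjusted p = 0.0093) without vector replicate 2, where Ubn1 also fell. These were 2 calls among 23, beside 12.8% of all genes called. Nasp, which keeps a reserve of H3 and H4 and also binds H1, had a change of 0.20 (SE 0.06, adjusted p = 0.124).

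Of 11 replication-independent histone genes, 0 passed over 8 arrays by limma, beside 4.52% of all genes. At an unadjusted p below 0.05 was 1, against 15.4% of all genes, namely Macroh2a2. That gene encodes a macroH2A variant with a large extra domain. Its signal was 9.64, 10.00, 9.81 and 9.82 on vector, 9.55 and 9.58 on DaxxA, and 9.30 and 9.54 on DaxxB, all Daxx arrays below all vector arrays. Separation in either direction was found in 14.8% of all genes. The change was -0.32 (SE 0.09, adjusted p = 0.0985), and -0.26 (adjusted p = 0.0413) without vector replicate 2. That was 1 call among 11, beside 12.8% of all genes called. H2az1, the variant H2A.Z, had a change of 0.08 (adjusted p = 0.598). H3f3a, one of the genes for the H3.3 protein that Daxx deposits, had a signal not above background and a change of -0.01 (adjusted p = 0.969). H3f3b, also on the list, was not matched to a probe set of its own. Whether the H3f3a probe set responds to its transcript was not tested, so the level of H3.3 transcripts stays unknown here.

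Cell-cycle genes bear on the members because histone transcripts follow S phase. Of 49 genes of S phase and DNA replication 1 rose, Rfc3, and 0 fell, beside 4.52% of all genes called. Their median change was 0.05, and 8 of the 49 (16.3%) stood at an unadjusted p below 0.05, against 15.4% of all genes. Rfc3, a subunit of the clamp loader, read 9.51, 9.63, 9.46 and 9.55 on vector and 9.75 to 9.80 on Daxx, with no overlap (change 0.23, SE 0.05, limma adjusted p = 0.0492). The mean over the 49 genes was 9.70 on vector replicate 2, 9.85 to 9.91 on the other vector arrays, 9.88 on both DaxxA arrays and 9.87 and 9.84 on DaxxB, so the groups overlapped. Without vector replicate 2, Mcm10 and Rfc3 rose and Gins3, Gins4 and Pole fell, beside 12.8% of all genes called. Of 24 genes of G2 and mitosis 1 fell, Kif11, a spindle motor (change -0.30, SE 0.05, adjusted p = 0.0173), and 0 rose, beside the same 4.52%. Their median change was -0.06, and 6 of the 24 (25%) stood at an unadjusted p below 0.05, against 15.4% of all genes. Of these Mki67, Top2a, Ccnb2 and Kif11 were lower, and Cdc20 and Cdca8 higher. The mean over these 24 genes was 10.56, 10.57 and 10.58 on vector replicates 1, 3 and 4 and 10.41 on vector replicate 2, against 10.52 and 10.51 on DaxxA and 10.50 and 10.47 on DaxxB. The Daxx arrays were thus below the vector arrays other than replicate 2, which was the lowest of all. On the 7 arrays without it Cdca8 rose and Top2a, Ccnb2, Kif11, Prc1 and Ttk fell, again beside 12.8% of all genes called. The part of cell-cycle phase in the values of H1f2 or any other member was not tested.

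The fibroblast markers moved with the groups. Of 15, 5 fell (Pdgfra, Pdgfrb, Twist2, Prrx1 and Dcn) and 1 rose, Col1a2, beside 4.52% of all genes called. The mean of the 15 was 9.39 to 9.44 on vector and 9.02 to 9.13 on Daxx. Dcn, the matrix proteoglycan decorin, had a change of -1.47 (SE 0.09) and Prrx1, a mesenchymal transcription factor, one of -1.07 (SE 0.06). Among the markers of other cell types 1 passed, the neural marker Map2 (change 0.60, SE 0.10, adjusted p = 0.0104). Means of the male germ cell markers were 5.10 to 5.18 on 7 arrays and 5.63 on vector replicate 2, below the background limit, beside the testis histone genes H1f6, H2ac1 and H2bc1, of which none passed over 8 arrays by limma and 0 of the 5 testis histone genes measured reached an unadjusted p below 0.05. In bulk RNA fewer cells of a type and less RNA per cell cannot be told apart, and the part of these markers in the change of H1f2 was not tested.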

How the data were processed

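The deposited values are log2 signals, 1 per probe set and array, made with Affymetrix Expression Console and RMA per the submitters' processing notes. RMA subtracts background, quantile-normalises the arrays and summarises probes, so a change shared by most genes is not visible. The genome build was not given in the sources used here, nor were software versions. Of 35556 probe sets, 21789 had 1 gene symbol in the platform annotation, 1621 several and 12146 none listed. A gene was represented by its single-symbol probe set with the highest mean. limma 3.58.1 in R 4.3.3 (lmFit, eBayes) was fitted to all 19938 genes, with p-values adjusted by Benjamini-Hochberg, and to all probe sets for those with several symbols. DaxxA, DaxxB and vector were also fitted as 3 groups with 1 shared spread. The fit was tested on simulated data. Values on every array are given for members called in any comparison, for the highest mean and the extreme changes of each family, and for the polyadenylated and testis members, and up to 4 genes per other list were named by smallest adjusted p. Slbp, Npat, H3f3a, Col1a2 and genes named only as calls without vector replicate 2 were added for their role or as members of small counts, after their values were seen. The members and lists were chosen with earlier results of these data known. The annotation's 27 member symbols all matched RefSeq, whose upstream sequences were searched for 23 of them. Precision is limited by the number of arrays, and dim genes were left in. Alternatives tried were each array left out, the replicate number as a block, dim genes left out, the mean of probe sets, centring, array weights, a trended robust spread and all probe sets in 1 fit.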

Additional observations from a re-analysis of the deposited data

Results flagged for a closer look

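For each of the 27 members the highest or lowest array was compared with the others of its condition, 54 groups of 4 arrays in all. An array stood out in 5 groups, by a gap to its nearest neighbour, as a share of the group's range, above Dixon's 95% critical value, and chance alone gives about 1 in 20. Vector replicate 2, the array that stands apart over all genes, was the outlying one in 3 of them. H3c7, not above background, read 5.21 there and 4.41 to 4.44 on the other vector arrays (gap 0.962 of the range). H2bc22, an H2B gene, read 6.84 there and 6.44 to 6.48 on the others (gap 0.906 of the range). H2bc4, one of the histone genes known to give polyadenylated transcripts, read 8.91 there and 8.66 to 8.70 on the others (gap 0.835 of the range). H4c14, an H4 gene of the chromosome 3 cluster, read 12.07 on DaxxB replicate 1 and 12.24 to 12.27 on the other 3 Daxx arrays (gap 0.867 of the range). H2ac1, the testis H2A gene, read 8.59 on DaxxA replicate 1, and 8.52 to 8.53 on the other 3 Daxx arrays (gap 0.830 of the range).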

How the results depend on the processing

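The call of H1f2 in Daxx minus vector depended on the setting, while its change stayed positive in each one run. Members called there numbered 1 of 27 in the fit above (4.52% of all genes) and 0 with all probe sets in 1 fit (1.90% of all features called). There were 2 with array weights (16.2%) and 0 with the replicate block (0.813%). Leaving out each array gave 0 to 2, in fits that called 2.24% to 12.8% of all genes. DaxxA minus vector called 2 with array weights (13.6% of all genes) and 1 with dim genes left out (4.62%). Leaving out each vector array gave 0 to 3 there (0.868% to 11.3%). DaxxB minus vector called 3 with array weights (21.3%) and 0 to 3 leaving out each vector array (1.06% to 20.5%). The calls above 1 came without vector replicate 2 or with array weights, which gave that array a weight of 0.052.

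Same-numbered arrays of different groups had deviations correlated at 0.162, 0.0694, 0.118, 0.0238 and, in both pairs of DaxxA with DaxxB, 0.0963. With 2 arrays in a group the deviations mirror each other, so both pairs of DaxxA with DaxxB must give the same value. All these values were above 0, and they were not tested. No label says that a number marks a shared culture or batch, so pairing was not established. With the replicate block H1f2 had a change of 0.34 (adjusted p = 0.180), and 162 genes were called in place of 902. Only vector has replicates 3 and 4, so in that fit these arrays add nothing to the change. It rests on vector replicates 1 and 2, of which replicate 2 is the array that stood apart. The lower counts with the block therefore also reflect fewer vector arrays.

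In the other lists, array weights gave 1 call among replication-independent histones, 5 in histone transcript synthesis and processing, 4 in chaperones, 8 in S phase and 9 in G2 and mitosis, in a fit that called 16.2% of all genes. Leaving out dim genes gave 1 in the processing list and 1 in chaperones, in a fit that called 10.3% of the genes kept. The block (0.813% of all genes called) gave 0 in S phase and 0 in G2 and mitosis. Centring (3.59%) gave 0 in the latter. Leaving out each array gave 0 to 1, 0 to 4, 0 to 2, 0 to 5 and 0 to 6 in that order of lists. Those fits called 2.24% to 12.8% of all genes. Over 65 genes, all members among them, 40 of 839 gene and setting pairs changed sign, in 14 genes. Of these pairs 2 were called, both for H3c7, which is not above background and had a change of -0.01 over 8 arrays, 0.19 with array weights, and from -0.083 to 0.18 leaving out each array, the highest without vector replicate 2. The median change of the members ran from -0.06 to 0.01 over the settings.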
